A study of Mus musculus with 8 samples.

Results

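The 41 genes described here encode nuclear receptors, ligand-regulated or orphan transcription factors, in the olfactory bulb of the mouse. They were taken by name from the array: every noncontrol spot whose gene name was that of a nuclear receptor was used, except for the receptors of the circadian clock, the immediate early receptors and the glucocorticoid receptor. All 41 were on the array, among 34797 gene names in all, with 65 probes on 103 spots. RNA came from male C57BL/6J mice of 56 days of age. C-C and C-DE mice grew up in a standard cage. EE-C and EE-DE mice grew up in environmental enrichment, a larger cage with a running wheel, a small house, blocks and tubing, from before birth, and stayed in the same kind of housing afterwards. After weaning at postnatal day 27, C-C and EE-C mice were kept in clean air. The air of the C-DE and EE-DE mice held diesel exhaust at 90 µg/m3 during 8 h of each day for 28 days, between postnatal days 28 and 55. No group carried an engineered allele.

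According to the methods, the RNA of the mice of a group was combined into 1 pool, and each pool was divided over 2 one-colour arrays. The 8 arrays therefore measured 4 pools. By that account the spread between the 2 arrays of a pool is technical and gives no measure of the variation between mice, so no test of the exposure or of the housing was made. The labels only number the arrays, and markers of the olfactory mucosa and of neutrophils differed between the 2 arrays of a pool, with values given further on. Values are given on every array, and a difference between pools is the difference of the mean log2 signals, with its range over the 4 ways to set 1 array of each pool against the other. A level is the log2 signal relative to the 75th percentile of the same array. A negative level is a signal below that percentile, and levels of different probes cannot be compared. A change of 1.5-fold (0.585 on the log2 scale) was the threshold used in the study's methods.

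Nuclear receptors bind DNA as monomers, homodimers or, for many of them, as heterodimers with a retinoid X receptor. Without ligand, many of those heterodimers hold corepressors such as Ncor1, and the ligand exchanges them for coactivators such as the Ncoa proteins. The constitutive androstane receptor (Nr1i3) and the pregnane X receptor (Nr1i2) are known from the liver, where foreign compounds activate them and they switch on cytochrome P450 genes. In the olfactory bulb, COUP-TFI (Nr2f1) and Tlx (Nr2e1) are known for their roles in interneurons and in the neural stem cells that supply them.

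The finding on Nr1i3 rests on 1 of 2 probes, so both are shown. They were designed against the transcript NM_009803 and lie on the plus strand of chromosome 1 (mm9), at chr1:173147776-173147835 and chr1:173148765-173148824, 929 bases apart. Both are printed 5′ to 3′ as given in the array files, with no part in capitals.
Bright Nr1i3 probe, A_51_P358256: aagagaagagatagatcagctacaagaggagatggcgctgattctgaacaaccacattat
Dim Nr1i3 probe, A_55_P2035824: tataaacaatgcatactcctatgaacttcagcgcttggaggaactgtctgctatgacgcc

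Spots well above background made up 56.7% of noncontrol spots on the first EE-DE array and from 68.0% to 70.6% elsewhere. Its median background was 29 intensity units, compared with 21 to 24 on the rest. No spot was saturated, and the number of arrays limits the precision. Among 21709 probes above background on all arrays, the SD between the 2 arrays of a pool was 0.114 (log2) in C-C and 0.108 in C-DE, and it was 0.167 in EE-C and 0.127 in EE-DE. Among the receptors it was 0.0970, 0.261, 0.158 and 0.108. The larger value in C-DE came with Nr5a1 and Nr5a2, the 2 receptors whose C-DE arrays lay at least 1.5-fold apart. The 8 arrays shared a slide on which one column carried both standard-cage pools and the other both enriched pools, so housing and slide column cannot be told apart. In bulk tissue, fewer cells of a type and less RNA per cell cannot be told apart either. All 6 markers of mitral and tufted cells and all 7 of bulb interneurons were above background on every array.

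Of the 41 receptors, 31 were above background on every array, with 44 probes. Detected lipid and xenobiotic sensors were 6 of 8, namely Nr1i3, both liver X receptors (Nr1h2 and Nr1h3) and all of the fatty acid sensors Ppara, Ppard and Pparg. All 8 of the retinoid group were detected: the retinoic acid receptors Rara, Rarb and Rarg, the retinoid X receptors Rxra, Rxrb and Rxrg, and the related orphan receptors Rora and Rorb. Among thyroid hormone, vitamin D and steroid receptors 6 of 7 were detected, and Esr1 was not. Among 18 orphan receptors 11 were detected.

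The other 10 receptors did not pass. No spot of Hnf4a, Hnf4g, Nr0b1, Nr0b2, Nr1i2 or Nr2e3 was well above background on any array. These are the hepatocyte nuclear factors 4, the receptor-like repressors Dax1 and SHP, the pregnane X receptor and a receptor of photoreceptor cells. The bile acid receptor Nr1h4 was above background on 1 array and the germ cell nuclear factor Nr6a1 on 7. Each probe of these genes has only an upper bound on the arrays where it failed, so no fold is given for them. Across the 11 receptor probes below background on all arrays, the median level was -6.70 on the first of the EE-DE arrays and between -8.25 and -7.98 on each of the other 7. Single dim probes did not all follow that median: Hnf4g was at -6.67 on the first EE-DE array and higher on both first arrays of the standard-cage pools, at -6.01 and -6.09.

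Of the receptors that failed, Nr4a3, Esr1 and Nr0b1 had a probe printed on 10 spots. None of the 10 spots of Nr0b1 was well above background on any array, while the call varied within an array for the other two. For Nr4a3 (Nor1), 8 and 9 of 10 spots were well above background on the C-C arrays, 6 and 8 on the C-DE arrays, 5 and 10 on the EE-C arrays, and 1 and 10 on the EE-DE arrays. Spots of the same probe thus passed on some arrays and failed on others, and the first EE-DE array had the fewest. For the repeated probe of Esr1 (oestrogen receptor alpha), 4 and 5 of 10 spots passed on the C-C arrays, 3 and 4 on the C-DE arrays, 3 and 5 on the EE-C arrays, and none of 10 on either EE-DE array. The mean level of that Esr1 probe was -6.17 and -6.00 in C-C, -6.08 and -6.11 in C-DE, -5.98 and -5.93 in EE-C, and -6.46 and -6.43 in EE-DE. It was lower on both EE-DE arrays than on the other 6, at a signal too close to background for a fold. The other 3 Esr1 probes were below background on all arrays.

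**Figure D1:**
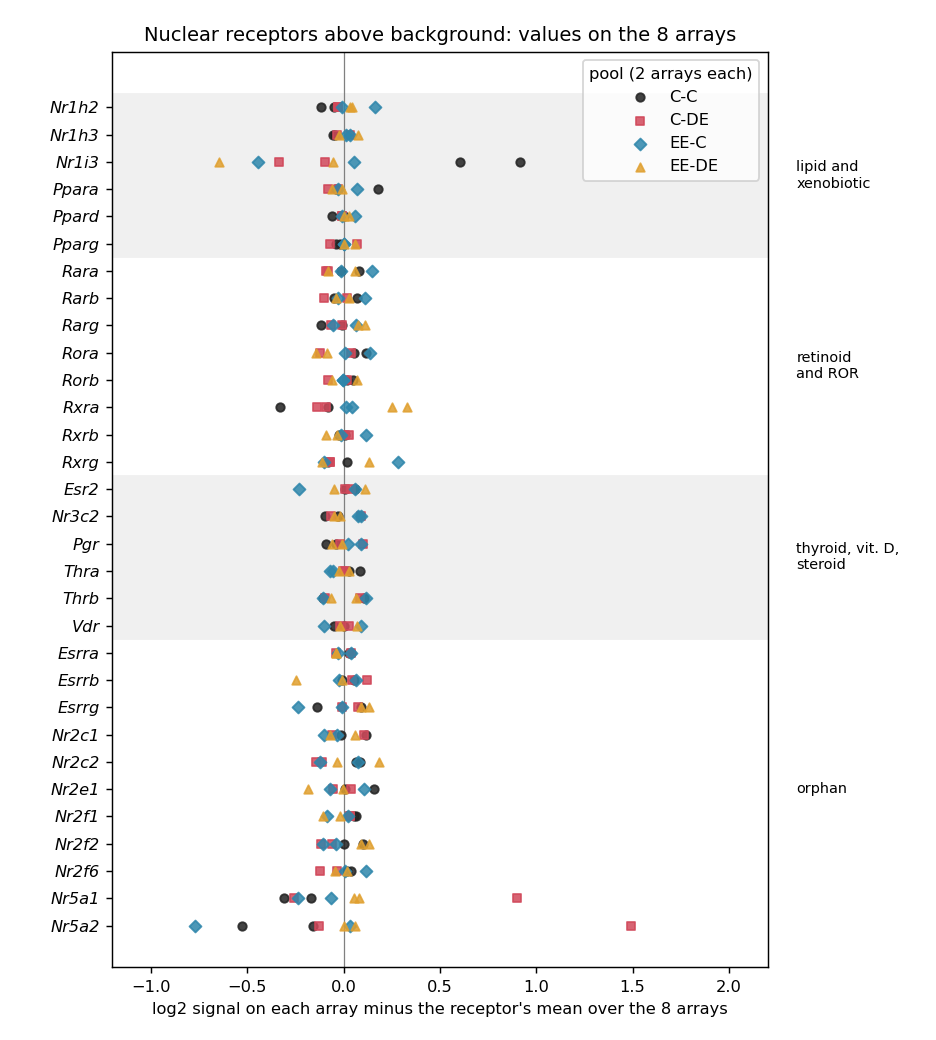
Log2 signal of the 31 receptors above background on all 8 arrays, each value minus the receptor's own mean over the arrays (x axis, log2 units), with receptors grouped by ligand class (y axis) and pools by symbol. 27 receptors span less than 0.5, and the wide ones are Nr1i3, with both C-C arrays to the right, Nr5a1 and Nr5a2, each with 1 C-DE array far to the right, and Rxra, with both EE-DE arrays to the right.

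Most detected receptors hardly moved. The range of a receptor over the 8 arrays had a median of 0.24 (log2), the same as the median of 0.24 over all probes, and it was under 0.5 for 27 of 31 (87.1%, against 87.0% of all probes). The narrowest was Esrra, an oestrogen-related receptor that acts on mitochondrial genes, with a range of 0.08. It was followed by Ppard with 0.12, Nr1h3 with 0.13 and Pparg with 0.14. In all 5 comparisons, 27 of 31 receptors stayed within 0.25 of 0 (87.1%, against 83.6% of all probes). The receptors outside were Nr1i3, Nr5a1, Nr5a2 and Rxra.

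With diesel exhaust in standard cages (C-DE/C-C), 2 of 31 receptors passed 1.5-fold, against 0.576% of all probes: Nr1i3 was lower and Nr5a2 higher. In enriched housing (EE-DE/EE-C) 0 of 31 passed, against 0.944% of probes. Of the comparisons of housing, Nr1i3 was lower in EE-C/C-C (1 of 31, against 0.825% of probes), and Nr5a2 was lower in EE-DE/C-DE (1 of 31, against 0.636%). With both differences together (EE-DE/C-C), Nr1i3 was lower (1 of 31, against 0.815%). Comparisons that use the same pool share its arrays, and 3 of the 5 share C-C. The calls come from Nr1i3 and Nr5a2 only, and none of the other 42 probes of detected receptors passed in any comparison. The median difference of the 31 receptors was -0.01 in both exposure comparisons within a housing, 0.00 in EE-C/C-C as well as in EE-DE/C-C, and 0.02 in EE-DE/C-DE, and that of all probes lay between -0.01 and 0.01.

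When 1.5-fold was asked of all 4 pairings of arrays, Nr1i3 remained in EE-DE/C-C (against 0.111% of probes) and in C-DE/C-C (0.106%), and 0 receptors passed in EE-DE/EE-C (0.0783% of probes), EE-C/C-C (0.0461%) or EE-DE/C-DE (0.175%). The arrays of the pools did not overlap for 14 receptors in C-DE/C-C (45.2%, against 40.9% of probes) and for 11 in EE-DE/EE-C (35.5%, against 34.2%). They did not overlap for 12 in EE-C/C-C (38.7%, against 37.7%), 11 in EE-DE/C-DE (35.5%, against 42.2%) and 14 in EE-DE/C-C (45.2%, against 47.1%). These shares lie near those of all probes.

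**Figure D2:**
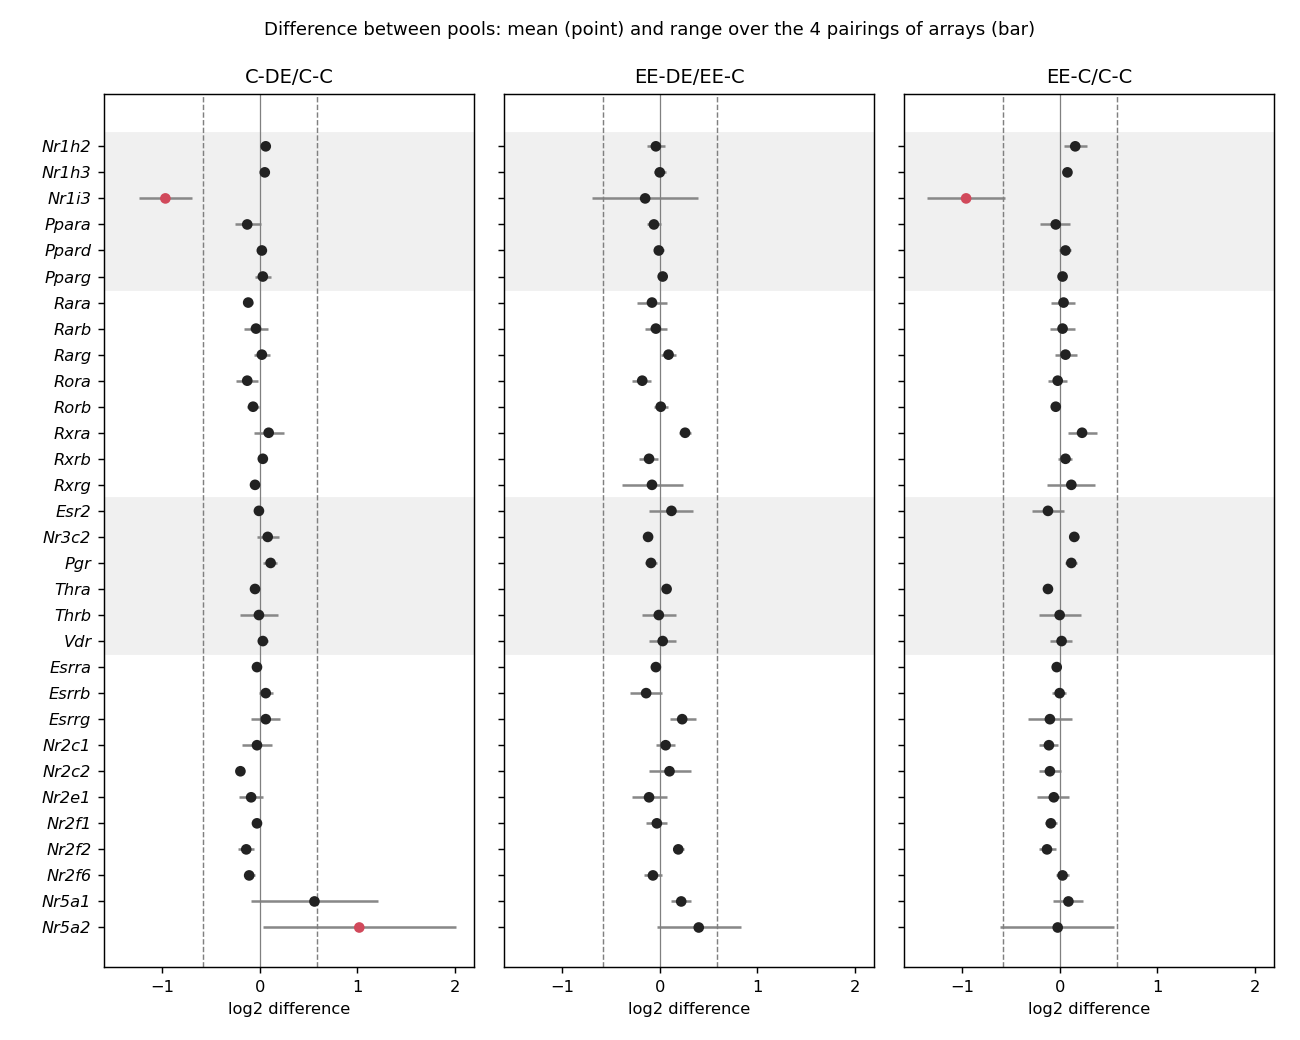
Log2 difference between pools for the 31 detected receptors for C-DE/C-C (left), EE-DE/EE-C (middle) and EE-C/C-C (right; x axes, log2 units). Points are differences of the pool means, red where past 1.5-fold (dashed lines), and bars the range over the 4 pairings of arrays: Nr1i3 is lower in the left and right panels, while the bar of Nr5a2 in the left panel runs from 0.03 to 2.01.

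Among the lipid and xenobiotic sensors, Nr1i3 was the one that differed. Its bright probe had levels of -0.77 and -1.08 on the C-C arrays, -2.02 and -1.78 on the C-DE arrays, -1.63 and -2.13 on the EE-C arrays, and -2.33 and -1.74 on the EE-DE arrays. Both C-C arrays lay above all 6 others, and the arrays of the other 3 pools overlapped. The processed signals were 382 and 335 intensity units in C-C, 159 and 193 in C-DE, 212 and 158 in EE-C, and 142 and 202 in EE-DE.

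Nr1i3 was 1.96-fold lower in C-DE than in C-C (log2 difference -0.97, range -1.24 to -0.70). It was 1.94-fold lower in EE-C than in C-C (-0.96, range -1.36 to -0.56) and 2.16-fold lower in EE-DE than in C-C (-1.11, range -1.56 to -0.66). All 3 values rest on the same C-C arrays. Between the other pools the ranges included 0, with -0.14 (range -0.55 to 0.28) in EE-DE/C-DE and -0.15 (range -0.70 to 0.39) in EE-DE/EE-C. The exposure difference in enriched housing minus that in standard cages was 0.82 (log2), and its range over 16 combinations of arrays ran from 0.00 to 1.64. Over all probes, 1.48% had such a difference past 1.5-fold, and among the receptors Nr1i3 and Nr5a2 did. The study had picked Nr1i3 on these same arrays, so its direction here is not independent evidence.

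The dim Nr1i3 probe, printed above, was not well above background on any array. Its levels were -7.89 and -7.90 in C-C, -8.26 and -7.13 in C-DE, -8.33 and -8.48 in EE-C, and -6.76 and -7.99 in EE-DE. At such levels it gave no separate reading of Nr1i3. Around the bright probe, 160 other spots within 10 rows and columns deviated by at most 0.06 (median, log2) from their own means on any array.

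The other detected sensors were flat. Nr1h2 (liver X receptor beta) was 0.16 higher in EE-C/C-C, and the differences of the probes that stood for Nr1h3, Ppara, Ppard and Pparg lay between -0.13 and 0.08 in all 5 comparisons. Over the 3 probes of Ppara they lay between -0.16 and 0.09. Pparg was also measured by a probe on 10 spots, and all 10 were above background on every array.

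**Figure D3:**
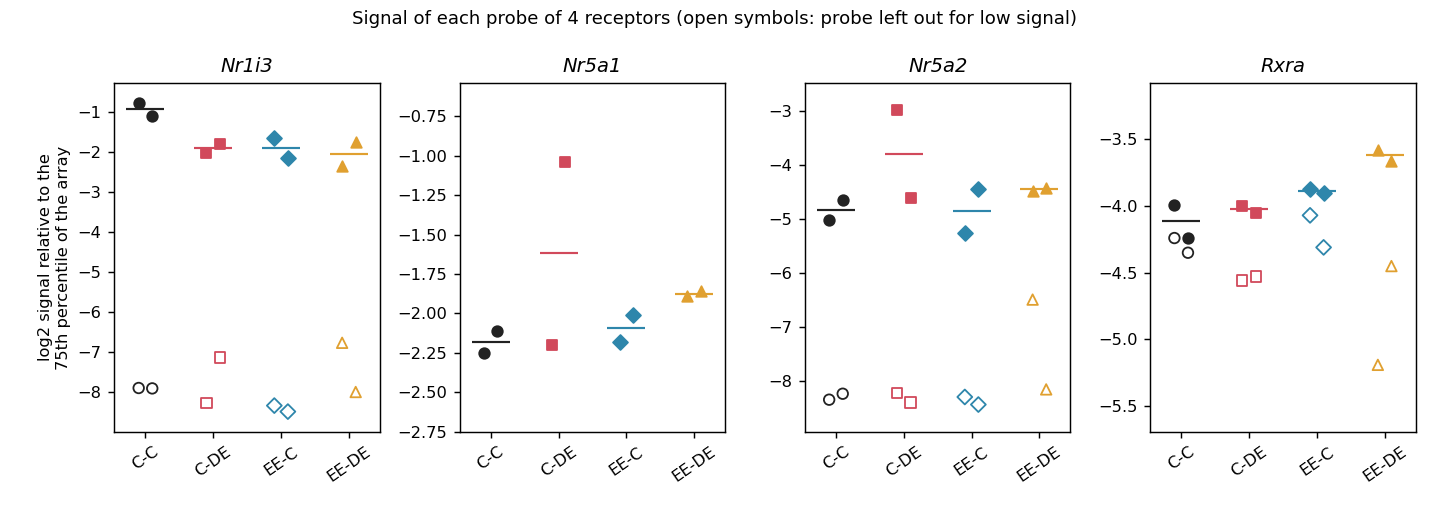
Log2 signal relative to the 75th percentile of the array (y axis) for every probe of Nr1i3, Nr5a1, Nr5a2 and Rxra in the 4 pools (x axis), each symbol 1 array and each line the mean of a pool; open symbols are probes that failed the background test. The C-C arrays of the bright Nr1i3 probe stand above the rest, 1 C-DE array each carries Nr5a1 and Nr5a2, and both EE-DE arrays stand above the rest on the brighter Rxra probe and not on the dimmer one, which failed the background test on the first EE-DE array.

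Nr5a1 (steroidogenic factor 1) and Nr5a2 (liver receptor homologue 1) are close relatives that act on genes of steroid and bile acid synthesis. Nr5a2 (NM_030676, chr1:138740903-138740962, minus strand) had levels of -5.01 and -4.64 in C-C, -2.99 and -4.61 in C-DE, -5.25 and -4.45 in EE-C, and -4.48 and -4.42 in EE-DE. The first C-DE array stood alone above the other 7, with 80.9 intensity units against 17.3 to 32.1. The difference in C-DE/C-C was 1.02 (range 0.03 to 2.01), or 2.03-fold, and without the first C-DE array it was 0.22.

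In EE-DE/C-DE, Nr5a2 differed by -0.65 (range -1.49 to 0.19), and by 0.16 without the first C-DE array, which turned its direction. Its differences were 0.40 (range -0.03 to 0.83) in EE-DE/EE-C, -0.02 (range -0.61 to 0.56) in EE-C/C-C and 0.37 (range 0.16 to 0.59) in EE-DE/C-C. The difference of the exposure effect between housings was -0.63, with a range from -2.05 to 0.80. Both calls of Nr5a2 thus rest on 1 array. With normexp background correction the differences were -0.17 in EE-DE/C-DE and 0.44 in C-DE/C-C. The second Nr5a2 probe was below background on all arrays.

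Nr5a1 (NM_139051, chr2:38548180-38548239, minus strand) had levels of -2.25 and -2.11 in C-C, -2.20 and -1.04 in C-DE, -2.18 and -2.01 in EE-C, and -1.89 and -1.86 in EE-DE. Here the second C-DE array was the high one, and the first lay among the C-C and EE-C arrays. The difference in C-DE/C-C was 0.56 (range -0.09 to 1.21), just under the threshold. It was -0.02 without the second C-DE array and 1.14 without the first. With the linear signals of the arrays averaged, which gives the higher array more weight, it was 0.67 and passed. The difference in EE-DE/C-C was 0.31 (range 0.23 to 0.39), and the one in EE-DE/EE-C was 0.22 (range 0.12 to 0.32), with no overlap of the arrays in either comparison. The study listed Nr5a1 from these arrays, so this gene too was chosen on the same measurements.

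Rxra (retinoid X receptor alpha, the partner of many receptors here) showed the largest difference of the retinoid group among the probes that stood for the genes. Its brighter probe (NM_011305, chr2:27618781-27618839, plus strand) had levels of -3.99 and -4.24 in C-C, -4.00 and -4.05 in C-DE, -3.87 and -3.90 in EE-C, and -3.58 and -3.66 in EE-DE. Both EE-DE arrays were above all 6 others. The processed signals of this probe were low, from 37.3 intensity units on a C-C array to 59.7 on an EE-DE array. The difference was 0.49 (range 0.33 to 0.66) in EE-DE/C-C, 0.40 (range 0.34 to 0.46) in EE-DE/C-DE and 0.26 (range 0.20 to 0.32) in EE-DE/EE-C. In all 4 pairings Rxra was higher by at least 0.32 (log2) in EE-DE/C-DE and in EE-DE/C-C. The share of all probes that differed by as much, in either direction, was 0.636% and 0.880%.

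The other Rxra probe did not repeat the order of the pools. It was above background on 7 arrays and failed on the first EE-DE array. Its levels were -4.24 and -4.35 in C-C, -4.56 and -4.53 in C-DE, -4.07 and -4.31 in EE-C, and -5.19 and -4.45 in EE-DE. On the EE-DE array where it passed, the level of -4.45 was above both C-DE arrays, as on the brighter probe, but below all C-C and EE-C arrays, and the value on the first EE-DE array is only an upper bound. With normexp background correction, the differences of the brighter probe were 0.33 in EE-DE/C-C, 0.26 in EE-DE/C-DE and 0.21 in EE-DE/EE-C.

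With 1 probe for each gene, the other retinoid receptors, Rara, Rarb, Rarg, Rxrb and Rxrg, lay between -0.12 and 0.16 in all 5 comparisons. Rora and Rorb, which act in neuronal differentiation, lay between -0.20 and 0.04, the lowest being Rora in EE-DE/C-C. Counting only probes named by a GenBank or RefSeq accession, 12 receptors had several above background, and the probes of a gene differed by at most 0.22 (log2) in any of the 60 pairs of receptor and comparison. A second Rora probe without such an accession differed more from the first, by -0.58 against -0.02 in EE-C/C-C.

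Among thyroid hormone, vitamin D and steroid receptors, the largest difference of the probes that stood for the genes was that of Nr3c2, the mineralocorticoid receptor, with 0.15 (range 0.10 to 0.20) in EE-C/C-C. Its levels were -2.33 and -2.40 in C-C, -2.21 and -2.37 in C-DE, -2.21 and -2.23 in EE-C, and -2.35 and -2.32 in EE-DE. The EE-C arrays were above both C-C arrays, and the first C-DE array was as high as they were. The brighter Thrb probe lay between -0.01 and 0.00 in all comparisons, and the dimmer one, also above background on all arrays, was lowest in EE-DE/C-C at -0.17 (range -0.32 to -0.01). Vdr lay between 0.02 and 0.05. Esr2 (oestrogen receptor beta) lay between -0.12 and 0.12, Pgr (progesterone receptor) between -0.09 and 0.12, and the probe that stood for Thra (thyroid hormone receptor alpha) between -0.12 and 0.07, with -0.15 on its other probe in EE-DE/EE-C.

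The orphan receptors apart from Nr5a1 and Nr5a2 were the oestrogen-related receptors Esrra, Esrrb and Esrrg, the testicular receptors Nr2c1 and Nr2c2, Nr2e1, Nr2f1, Nr2f2 (COUP-TFII) and Nr2f6. Esrrg, which acts on mitochondrial genes as Esrra does, was 0.23 higher in EE-DE/EE-C, and 0.15 higher on its other probe above background. Esrrb was 0.21 lower in EE-DE/C-DE. Nr2c2 differed by -0.20 in C-DE/C-C and by 0.20 in EE-DE/C-DE. On its other probe above background, these differences were -0.05 and 0.02. Nr2e1, known from neural stem cells, lay between -0.18 and -0.06 and was below 0 in all 5 comparisons, which share pools. Its range over the pairings excluded 0 only in EE-DE/C-C (-0.34 to -0.01). Esrra, between -0.07 and -0.03, and the probe that stood for Nr2f1, between -0.12 and -0.03, were also below 0 throughout. The other Nr2f1 probe was at 0.04 in EE-DE/EE-C. None of the differences of these receptors reached 0.32 in size.

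The genes around the receptors had medians near 0. All 22 coregulators reported here were detected, 0 of 22 passed 1.5-fold in any comparison, and their differences lay between -0.21 and 0.19. Their medians were -0.03 for C-DE/C-C, then 0.02 for EE-DE/EE-C, -0.06 for EE-C/C-C, -0.02 for EE-DE/C-DE and -0.05 for EE-DE/C-C. Of 16 genes that make, carry or break down the ligands, 14 were detected and 0 passed, with differences between -0.45 and 0.36 and medians of 0.01, 0.01, 0.07, 0.04 and 0.07 in the same order. The lowest was Ch25h, which makes an oxysterol, in EE-DE/EE-C (-0.45, range -0.76 to -0.14). Of 19 targets of retinoid, thyroid hormone, vitamin D and steroid receptors, 16 were detected and 0 passed, with differences between -0.33 and 0.51 and medians of -0.02, -0.10, 0.06, 0.04 and 0.02. The highest was Cyp17a1, an enzyme of steroid synthesis, in EE-C/C-C (0.51, range 0.47 to 0.56).

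Of 27 targets of the lipid and xenobiotic sensors, 26 were on the array and 18 were detected, with differences between -0.60 and 0.27. Their medians were -0.01, 0.02, -0.01, 0.01 and 0.02. A single one passed 1.5-fold, in 1 comparison: Cyp3a11, a cytochrome P450 gene known as a target of the pregnane X receptor and also of Nr1i3 in the liver, was lower in EE-DE/C-C (-0.60, range -0.69 to -0.51). Under the threshold were its differences of -0.27 in C-DE/C-C, -0.30 in EE-C/C-C, -0.33 in EE-DE/C-DE (Nr1i3, -0.14) and -0.30 in EE-DE/EE-C (Nr1i3, -0.15). Its levels were -2.04 and -2.08 in C-C, -2.28 and -2.38 in C-DE, -2.18 and -2.54 in EE-C, and -2.73 and -2.59 in EE-DE. The C-C arrays were the highest and the EE-DE arrays the lowest. Cyp3a11 belongs to a family of similar genes, and binding of related transcripts to its probe was not tested. Cyp3a13, a detected gene of the same family and list, was 0.16 higher in C-DE/C-C (range 0.12 to 0.21). Its other differences were 0.03 in EE-DE/EE-C, -0.08 in EE-C/C-C, -0.22 in EE-DE/C-DE and -0.06 in EE-DE/C-C.

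The P450 genes best known as targets of Nr1i3 could not be read. Cyp2b10 was above background on at most 5 arrays, Cyp2b13 and Cyp2c29 on 1 and Cyp2b9 on 0. Besides Cyp3a11, the detected targets that Nr1i3 and Nr1i2 share in the liver include the transporter genes Abcb1a and Abcc3, which did not pass 1.5-fold. Abcb1a lay between -0.06 and 0.08 in all 5 comparisons. Abcc3 differed by -0.08 in C-DE/C-C, -0.10 in EE-C/C-C and 0.17 in EE-DE/C-C, and at 0.27 (range 0.18 to 0.35) in EE-DE/EE-C and 0.25 (range 0.17 to 0.33) in EE-DE/C-DE it was the highest of the 18 detected targets. These 2 genes were chosen after their values were seen.

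**Figure D4:**
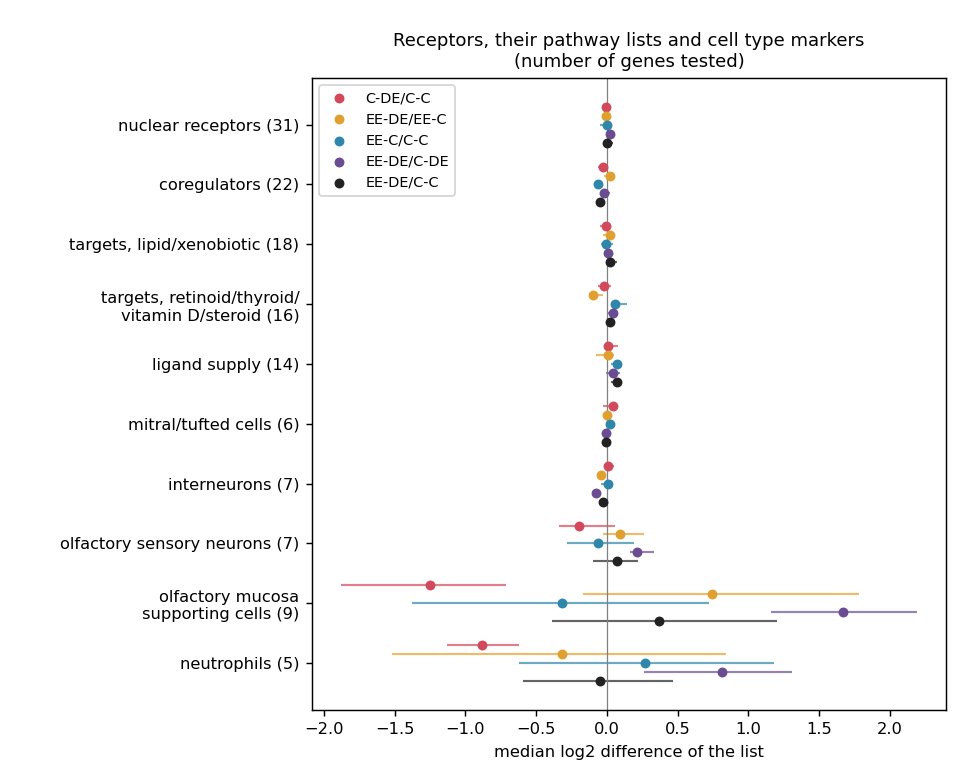
Median log2 difference (x axis) of the receptors, their pathway lists and cell type markers, with the number of genes above background in parentheses, in 5 comparisons (colours); bars extend over the range of the median across the 4 pairings of arrays. The receptors, coregulators, targets, ligand genes and bulb neuron markers lie within 0.10 of 0, while markers of the olfactory mucosa reach 1.67 in EE-DE/C-DE and -1.25 in C-DE/C-C.

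Markers of other tissues differed between the same pools. Of 12 markers of the olfactory mucosa (its supporting cells and its glands), 9 were detected, and their median was -1.25 in C-DE/C-C (9 of 9 lower), 0.74 in EE-DE/EE-C, -0.32 in EE-C/C-C, 1.67 in EE-DE/C-DE and 0.37 in EE-DE/C-C. Their summed signal, in multiples of the 75th percentile, was 13.3 and 7.69 in C-C, 4.00 and 5.03 in C-DE, 12.4 and 4.72 in EE-C, and 10.9 and 17.8 in EE-DE. Reg3g and Bpifa1 of that list were not above background on every array. Within each of the 4 pools, the array with the larger sum was also the array with the higher Nr1i3 level. The sums of the bone and olfactory sensory neuron markers had the same order within each pool. On the EE-DE arrays these sums were close, at 15.6 and 15.7 for bone and 131 and 132 for sensory neurons. The neutrophil sums had the other order in C-DE and EE-DE. Between pools the orders differed: the mucosa sum was highest on the second EE-DE array, and Nr1i3 was highest on the C-C arrays.

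All 5 neutrophil markers were detected, with medians of -0.88, -0.32, 0.27, 0.81 and -0.05 in the same order and a summed signal of 4.68 and 3.86 in C-C, 2.59 and 2.25 in C-DE, 8.81 and 2.97 in EE-C, and 5.32 and 3.19 in EE-DE. The 6 of 7 bone markers detected had medians of -0.52, 0.27, -0.47, 0.27 and -0.19. Their summed signal was 21.9 and 14.2 in C-C, 10.5 and 17.1 in C-DE, 15.6 and 13.2 in EE-C, and 15.6 and 15.7 in EE-DE. The bone medians were thus below 0 in the same 3 comparisons in which Nr1i3 passed the threshold, with ranges over the pairings that included 0 in each. The part of these other cells in the receptor values was not tested.

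Markers of olfactory sensory neurons, whose axons end in the bulb, were detected for 7 of 8 genes and had medians of -0.20, 0.09, -0.06, 0.21 and 0.07. Cnga4 of that list passed 1.5-fold, with 1.26 in EE-DE/C-DE, 0.72 in EE-DE/EE-C and -0.95 in C-DE/C-C. The 3 red blood cell markers had medians between -0.20 and 0.21. The markers of mitral and tufted cells, interneurons, astrocytes and ensheathing cells, oligodendrocytes, microglia and endothelium were all detected. Their medians lay between -0.11 and 0.09, and 0 of them passed 1.5-fold in any comparison.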

How the data were processed

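The authors deposited the intensity values of the Agilent Feature Extraction software (version 10.7.3.1 per the labels), and its processed signal was used for the main values. The authors also deposited a table of log2 values. It matched log2 signal minus the 75th percentile of the array, centred on each probe's median, within 0.02 on all arrays for 99.4% of 21709 probes (largest difference 0.549), had column medians of -0.011 to 0.018, and served as an alternative.

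Here each intensity was taken to log2 and the array's 75th percentile of noncontrol spots was subtracted. Of 59305 noncontrol spots, 35736 had a GenBank or RefSeq accession, 24381 of which passed the software's well-above-background test on every array, and 23956 also had no outlier flag. Spots of a probe were averaged, leaving 21709 probes, and the brightest probe stood for a gene. Groups came from the labels. Coordinates are those of the files (mm9). A later RefSeq annotation gave the same symbol for 60 of 60 receptor probes with a RefSeq accession.

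Values on every array are given for receptors past 1.5-fold, those at least 0.32 (log2) apart in all 4 pairings, Nr1i3, Nr5a1 and the largest difference of each class. List genes past 1.5-fold are named, and Abcb1a, Abcc3, Ch25h, Cyp17a1 and Cyp3a13 were added after their values were seen, as were the narrowest receptors. The receptors, pathway lists and marker lists were chosen with earlier results of these data known, and 1 further coregulator was left out of its list and is not reported here. Alternatives were normexp (offset 50), quantile and median scaling, the series table, linear means, filters on dim, flagged and unannotated spots, the mean of all probes, other thresholds and leaving out each array. Python 3.11.15, numpy 2.4.6, pandas 2.3.3, matplotlib 3.10.9, R 4.3.3 and limma 3.58.1 were used.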

Additional observations from a re-analysis of the deposited data

Results flagged for a closer look

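For 4 of 31 receptors, with 1 probe each, every pairing of arrays moved one way with diesel exhaust in standard cages. In enriched housing every pairing of these 4 moved the other way. That was 12.9%, against 4.28% of all probes (930 of 21709), among which a gene can have several. The smallest difference behind it was that of Rxrb in C-DE/C-C, at 0.03 (range 0.01 to 0.05). The exposure difference in enriched housing minus that in standard cages was 0.33 (log2) for Nr2f2, -0.19 for Pgr, -0.14 for Rxrb and 0.12 for Thra. A second Thra probe above background on all arrays went the other way, with -0.15 in EE-DE/EE-C against 0.04 in C-DE/C-C, a difference of -0.19. A dimmer Pgr probe, above background on 7 arrays, did not show opposite directions. It was at -0.05 in C-DE/C-C (range -0.29 to 0.19) and -0.31 in EE-DE/EE-C. With 1 pool per group, the difference between housings was not tested for any of them, and the single differences behind each value were all below 0.32 in size.

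A second Rora probe (A_55_P2068006, ENSMUST00000143507, chr9:68511835-68511894, mm9) was left out because its name is no GenBank or RefSeq accession, yet it was above background on all 8 arrays, with a mean level of -3.37. Its levels were -2.98 and -3.01 in C-C, -3.41 and -3.46 in C-DE, -3.83 and -3.33 in EE-C, and -3.48 and -3.44 in EE-DE, so that both C-C arrays were above the other 6. Its differences were -0.44 in C-DE/C-C, -0.58 in EE-C/C-C and -0.46 in EE-DE/C-C, against -0.13, -0.02 and -0.20 for the Rora probe used.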

How the results depend on the processing

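Of 109 counts of receptors past 1.5-fold recomputed under the alternatives, 86 stayed within 1.5 times and 23 moved. In C-DE/C-C (2 receptors) the count was 1 with normexp, with the brighter 75% of spots, with 1.5-fold in all 4 pairings and at a 2-fold threshold, where the receptor left was Nr5a2 and not Nr1i3. In EE-C/C-C (1) it was 0 in all 4 pairings and at 2-fold. In EE-DE/C-DE (1) it was 0 with normexp, the brighter 75% of spots, all 4 pairings and 2-fold. It was 2 with positive and significant spots, with spots well above background in 1 of the pools and with spots above background on 7 or more arrays, the last chosen after seeing the data. The addition was Nr4a3, which had 1 of 10 spots well above background on the first EE-DE array, so that no fold is read from it. In EE-DE/C-C (1) it was 2 with spots above background in 1 of the pools, through Esr1, whose passing spots were chosen by their signal in C-C, so that no fold is read from them. Without single arrays the counts ranged from 2 to 3 in C-DE/C-C, from 0 to 1 in EE-DE/EE-C, from 1 to 1 in EE-C/C-C, from 1 to 1 in EE-DE/C-DE and from 1 to 2 in EE-DE/C-C. The difference of the exposure effect between housings (2) was past 1.5-fold for 1 receptor with normexp, quantile normalization or the brighter spots, for 0 at 2-fold, and for 0 to 2 without single arrays, alternatives all chosen after seeing the data. With the second EE-C array left out it was 0. Without the first C-DE array, Nr5a2 reversed in EE-DE/C-DE (0.16; without single arrays it ranged from -1.46 to 0.16) and Nr5a1 was -0.83. Without the second EE-C array, Nr5a2 passed in EE-DE/EE-C (0.80), and without the first C-C array, Rxra passed in EE-DE/C-C (0.62). Over 17 settings, Nr1i3 stayed between -1.12 and -0.76 in C-DE/C-C, between -1.21 and -0.71 in EE-C/C-C and between -1.40 and -0.82 in EE-DE/C-C. It took either sign in EE-DE/C-DE (-0.43 to 0.16) and EE-DE/EE-C (-0.45 to 0.14). Medians of the receptors stayed between -0.03 and 0.02. The cause of these moves was not tested. No paired analysis was possible because the replicate numbers name only the 2 arrays of 1 pool and no test was fitted. Signal over background limits Nr5a2, both Rxra probes and the 10 receptors that failed, most of all on the first EE-DE array.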
